A study of Mus musculus with 4 samples.

Results

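A set of 10 genes encoding amino acid transporters of the plasma membrane was followed in mouse liver: Slc38a1, Slc38a2, Slc38a3, Slc38a4, Slc7a2, Slc7a5, Slc7a11, Slc3a2, Slc1a2 and Slc43a1. They were found by gene name among the array's gene probes, and every probe carrying one of these names was taken, which gave 15 probes of 39429 for the 10 genes of 31829 names on the array. Of the members, 7 had a single probe. In 9 genes at least 1 probe was bright enough to be tested (11 probes), and the single Slc7a11 probe was not.

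The study compared total RNA of individual livers from 4 fasted and 4 refed male C57BL/6J mice aged 8 to 12 weeks, a strain that the labels also write as C57/Bl6. The fasted mice had no food for 24 h. The refed mice went through the same 24 h without food and then ate for 2 h, so both groups had been fasted and no group was fed throughout. The mice carried no transgene or deletion that the labels name, and each liver came from a different animal. RNA of 1 fasted and 1 refed liver, drawn at random, shared each of the 4 arrays, which are numbered as replicates 1 to 4. The fasted liver carried the red dye Cy5 on replicates 1 and 2 and the green dye Cy3 on replicates 3 and 4.

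Amino acids cross the hepatocyte membrane on carriers that differ in substrate and driving force. System A carriers of the SLC38 family use the sodium gradient to concentrate small neutral amino acids such as alanine, a main gluconeogenic substrate that muscle releases in fasting, and system N carriers move glutamine in either direction. Other carriers take cationic amino acids, or exchange large neutral amino acids or cystine through a light chain that needs the Slc3a2 heavy chain to reach the membrane.

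In fasted liver the transcripts of 3 of the 9 tested transporters were higher and 0 were lower: the system A carriers Slc38a4 (2.82-fold) and Slc38a2 (1.89-fold), and the cationic amino acid carrier Slc7a2 (1.85-fold). A gene counted as changed at an adjusted p under 0.10 in limma, with a change of at least 1.5-fold. Over all 16077 gene names tested, 1.82% were called higher and 2.13% lower, 3.95% in all. Over the probes, each counted on its own, the shares were 1.7%, 2.08% and 3.78%. The system N carrier Slc38a3, the third system A gene Slc38a1, the exchanger genes Slc7a5 and Slc3a2, the glutamate carrier Slc1a2 and the large neutral amino acid carrier Slc43a1 did not pass. The median log2 ratio over the 9 genes was 0.10, against 0.003 over all gene names tested.

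Levels below are normalized fluorescence intensities, which can be set against each other between livers for a given probe but not between probes. Changes are log2 ratios within an array, with the fasted liver over the refed one, so that values above 0 mean more signal after the fast. They are given as mean ± SD over the 4 arrays. In whole liver, a change in the number of cells that express a gene and a change in RNA per cell cannot be told apart. The 4 arrays limit the precision of every value. All 8 hepatocyte markers examined (among them Alb, Apob and Hnf4a) were above background in every liver. In limma 0 of them were called, and 2 had an unadjusted p under 0.05.

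One liver stood apart. The refed liver of replicate 3 had 11 of 11 pancreatic acinar genes above background, against at most 5 in the other refed livers and 3 to 8 in the fasted livers. The summed level of these genes was 39915 in that liver, 976 to 1124 in the other refed livers and 994 to 1909 in the fasted livers. Haemoglobin and other blood genes moved too: the mean log2 ratio of 4 blood genes was 1.34 on replicate 1, -0.26 on replicate 2, 1.74 on replicate 3 and 0.21 on replicate 4. Without replicate 3, Slc38a4 was at 1.48 and Slc38a2 at 0.86, both still called, and Slc7a2, at 0.98, was no longer called (adjusted p of 0.131 in limma).

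The sequences that identify the measured transcripts are given first, because the system A genes share a family and a chromosomal neighbourhood and a probe must tell them apart. Each probe is 60 bases long. Its first 30 bases are printed 5′ to 3′ as deposited, for the 3 genes that rose and for Slc38a1, the system A gene that did not pass. The longest stretch that any of these probes had in common with a probe of another member gene was 8 bases for Slc38a4, Slc38a2 and Slc7a2 and 9 bases for Slc38a1. Probes were compared with probes and not with the transcripts of the other genes. These lengths therefore do not show whether a probe could bind the RNA of another member, which was not tested.
Slc38a4: ctaacctggaagtatccacttgtgtagtta
Slc38a2: aaggttccaaatgaatttcaggccaaattc
Slc38a1: tggaaacacgatcaacagttgtcttcactt
Slc7a2: ttttttactgtggacaaaaaagacacagat

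Slc38a1, Slc38a2 and Slc38a4 lie side by side on mouse chromosome 15, with 0 protein-coding genes between them in the RefSeq annotation of GRCm38. In the mm9 coordinates of the files, the Slc38a1 and Slc38a2 probes are 112 kb apart and the Slc38a2 and Slc38a4 probes 307 kb apart. Whether a probe lies in coding sequence or in a UTR is not given in the sources used here.

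The sequence upstream of the start of a pair of these neighbours is shown because both rose. The study concerns CREB, a factor through which cAMP acts in fasting and which binds the cAMP response element TGACGTCA or its shorter core TGACG. RefSeq (GRCm38.p6) promoter windows were given for 6 of the 10 members, with 3 alternative starts for Slc38a4 and none for Slc38a1, Slc38a3, Slc7a2 and Slc7a5. The 250 bases before the start are printed 5′ to 3′ on the gene's strand, all of them on the minus strand of the chromosome, with matches to TGACG or to the TATA box sequence TATAAA in capitals.
Slc38a2, chr15:96699729-96699978: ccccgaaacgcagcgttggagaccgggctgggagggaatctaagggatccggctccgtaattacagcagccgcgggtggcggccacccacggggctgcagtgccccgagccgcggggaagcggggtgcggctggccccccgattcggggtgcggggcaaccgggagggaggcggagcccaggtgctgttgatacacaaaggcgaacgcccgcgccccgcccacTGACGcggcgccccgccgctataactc
Slc38a4, first start, chr15:97055957-97056206: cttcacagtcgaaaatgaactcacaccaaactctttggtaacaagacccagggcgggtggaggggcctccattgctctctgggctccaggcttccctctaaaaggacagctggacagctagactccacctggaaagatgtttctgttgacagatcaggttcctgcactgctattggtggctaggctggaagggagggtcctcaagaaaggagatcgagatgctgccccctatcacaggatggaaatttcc
Slc38a4, second start, chr15:97031214-97031463: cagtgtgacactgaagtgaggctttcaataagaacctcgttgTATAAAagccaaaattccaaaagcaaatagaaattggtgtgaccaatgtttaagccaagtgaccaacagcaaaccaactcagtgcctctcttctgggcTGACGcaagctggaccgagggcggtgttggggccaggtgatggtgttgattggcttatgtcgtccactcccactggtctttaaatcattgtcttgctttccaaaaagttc

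The Slc38a2 window held this core 27 to 23 bases before its start. In the second Slc38a4 window the core lay 110 to 106 bases and a TATAAA 208 to 203 bases before the start, and the first Slc38a4 window, like the third one, held neither. The full element TGACGTCA was in none of these windows. On either strand and in the same 250 bases before the start, TGACG, which is also part of the full element, was present in 17.8% of 32851 promoters. TGACGTCA was present in 1.55% and TATAAA in 12.4%. The element TGATGNAA, bound by ATF4 with a C/EBP partner, was present in 3.45%. It was in none of the windows printed here and occurred at 2 places in the Slc7a11 window, 66 to 59 and 47 to 40 bases before the start. Such a match is a description of letters and not a measured binding site, and these data do not say which start liver uses.

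Slc38a4 encodes a system A carrier that is abundant in liver and takes alanine and other small neutral amino acids into hepatocytes with sodium. Its level was 11057, 8632, 8467 and 7695 in the fasted livers of replicates 1 to 4 and 5259.7, 2508, 2871 and 2586 in the refed livers. Every fasted liver lay above every refed liver, and the highest liver of each group was the one of replicate 1. The log2 ratios were 1.07, 1.78, 1.56 and 1.57, with a mean of 1.497 ± 0.30 (SD, n = 4, adjusted p of 0.00459 in limma), which is 2.82-fold with a 95% confidence interval of 2.30- to 3.47-fold. This was the smallest adjusted p among the members. The probe lies at chr15:96825482-96825541 on the minus strand in mm9.

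Slc38a2, the broadly expressed system A carrier whose transcript is known to respond to amino acid shortage and to hormones, rose by less. Its level was 2533, 3197, 2784 and 3013 in the fasted livers and 1911, 1452, 1296 and 1473 in the refed livers. The groups did not overlap, and replicate 1 held both the lowest fasted and the highest refed liver. The log2 ratios were 0.41, 1.14, 1.103 and 1.03, a mean of 0.92 ± 0.35 (SD, n = 4, adjusted p of 0.0198 in limma) or 1.89-fold with an interval of 1.51- to 2.38-fold. Its probe lies at chr15:96518491-96518550 on the minus strand. Slc38a4 and Slc38a2 were the 2 members whose fasted levels all lay above their refed levels. This held for 5.81% of all probes tested, and groups without overlap in either direction for 13.6%.

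Slc38a1, the third gene of the cluster, codes for a system A carrier best known from brain. Its brightest probe, at chr15:96406793-96406852, gave 123, 183, 139 and 133 in the fasted livers and 117, 163, 129 and 137 in the refed livers. The groups overlapped almost entirely. The mean log2 ratio was 0.076 ± 0.084 (SD, n = 4, 95% interval -0.099 to 0.25, adjusted p of 0.622 in limma). The interval leaves out a 1.5-fold change in this signal. Levels this low include a constant of 50 added to every intensity in processing, which draws ratios toward 0. The interval therefore does not bound the change in RNA. With signals processed by Agilent's software the ratio was 0.18, not called. Both other Slc38a1 probes were above background in 0 of 4 livers of either group.

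Slc38a3 encodes the system N carrier that moves glutamine, histidine and asparagine across the hepatocyte membrane. The level was 9499.7, 8313, 8211 and 7986 in the fasted livers and 10507, 7562, 7694 and 7226 in the refed livers. The highest value of all was a refed liver, that of replicate 1, and the groups overlapped. The log2 ratios of -0.15, 0.14, 0.094 and 0.14 had a mean of 0.057 ± 0.14 (SD, n = 4, interval -0.14 to 0.25, adjusted p of 0.759 in limma). The probe lies at chr9:107553825-107553884.

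**Figure D1:**
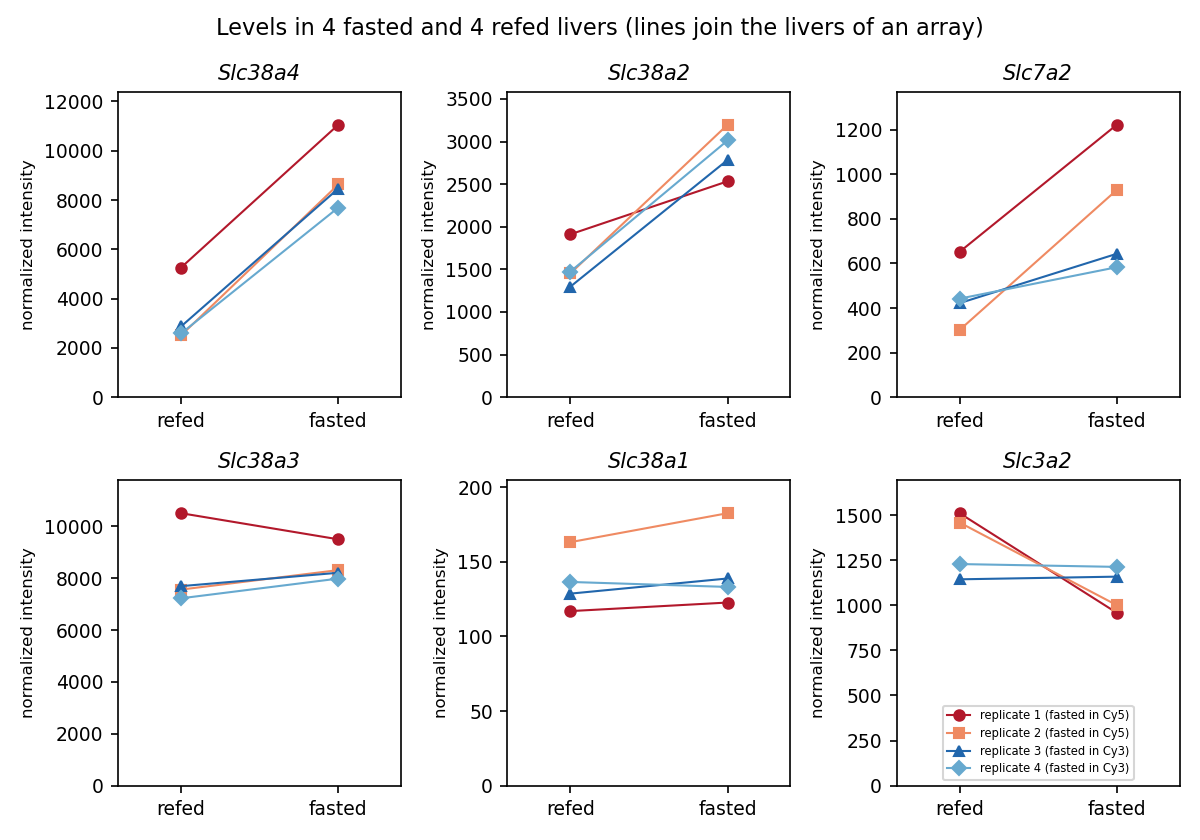
Normalized intensity of the brightest probe (axes start at 0) for 6 of the transporters in the refed (left) and fasted (right) livers. Each point is 1 liver, and lines join the livers that shared an array. The fasted and refed livers separate for Slc38a4 and Slc38a2, overlap for Slc7a2 although each line rises from refed to fasted liver, and overlap for Slc38a3, where levels run from 7226 to 10507.

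Within the SLC38 family the sizes of the rise were compared array by array. The log2 ratio of Slc38a4 exceeded that of its neighbour Slc38a2 on 4 of 4 arrays, by 0.67, 0.64, 0.46 and 0.54, with a mean of 0.58 ± 0.096 (SD, n = 4). It exceeded that of Slc38a1 by 1.42 ± 0.29, and Slc38a2 exceeded Slc38a1 by 0.84 ± 0.34. These differences compare ratios of different probes, whose response to a given change in RNA may differ, and they were not tested.

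Slc7a2 encodes a carrier of the cationic amino acids arginine, lysine and ornithine, with an isoform typical of liver, where arginine feeds the urea cycle. The level was 1223, 930.2, 644 and 583 in the fasted livers and 652, 301, 422 and 442 in the refed livers. The fasted liver was the higher one on all 4 arrays, but the groups overlapped, since the refed liver of replicate 1 exceeded the fasted livers of replicates 3 and 4. The log2 ratios were 0.91, 1.63, 0.61 and 0.40, a mean of 0.89 ± 0.54 (SD, n = 4, adjusted p of 0.0551 in limma) or 1.85-fold. The call was lost when replicate 1 was left out (0.88, adjusted p of 0.117) and when replicate 3 was left out (0.98, adjusted p of 0.131). The probe lies at chr8:42002869-42002928 on the plus strand. The difference between Slc38a2 and Slc7a2 was 0.035 ± 0.61, smaller than its spread.

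**Figure D2:**
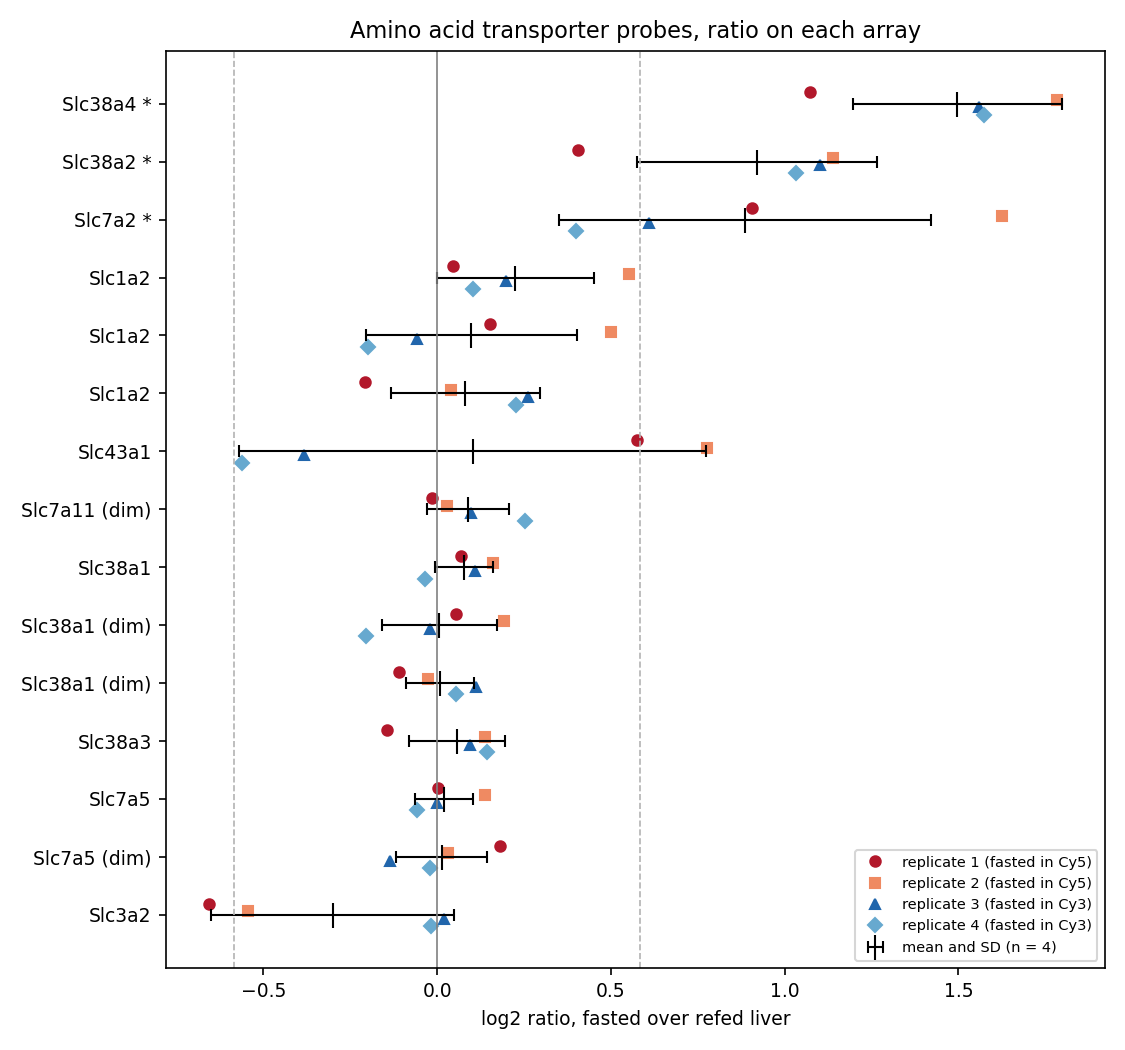
Log2 ratio of fasted over refed liver for each of the 15 probes of the 10 transporters. Each symbol is 1 array, bars give mean and SD (n = 4), dashed lines mark 1.5-fold, an asterisk marks a called probe and "(dim)" a probe that was not tested. Slc38a4 (1.07 to 1.78), Slc38a2 (0.41 to 1.14) and Slc7a2 (0.40 to 1.63) are the 3 called probes, and all their symbols lie to the right of 0.

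The exchangers of large neutral amino acids and cystine are made of a heavy chain and a light chain. Slc3a2, the heavy chain, was at 958, 1001, 1159 and 1213 in the fasted livers and at 1511, 1459, 1144 and 1229 in the refed livers. Refed liver was clearly higher on replicates 1 and 2, and the livers of replicates 3 and 4 hardly differed. The log2 ratios were -0.66, -0.54, 0.019 and -0.019, with a mean of -0.30 ± 0.35 (SD, n = 4, interval -0.63 to 0.032, adjusted p of 0.278 in limma). The light chain Slc7a5, which with Slc3a2 exchanges leucine and other large neutral amino acids for glutamine, had fasted levels of 107, 101, 99.4 and 99.0 and refed levels of 107, 92.2, 99.4 and 103. Its mean log2 ratio was 0.021 ± 0.083 (SD, n = 4, interval -0.15 to 0.20, adjusted p of 0.915 in limma), and its second probe was above background in 2 of 4 livers of each group. The Slc7a5 levels were lower still than those of Slc38a1, and its interval carries the same limit. With signals processed by Agilent's software the ratio was 0.16, not called.

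Slc7a11, the light chain that imports cystine for glutathione synthesis and exports glutamate, was above background in 1 of 4 fasted and 1 of 4 refed livers. Its intensities were 94.8, 64.2, 66.4 and 63.5 in the fasted livers and 95.9, 63.0, 62.1 and 53.3 in the refed livers, and no fold change is given. In both groups the liver of replicate 1 was the brightest.

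Slc1a2 encodes a sodium-coupled glutamate carrier, which in liver is found in the perivenous hepatocytes that make glutamine. Its brightest probe, at chr2:102617752-102617811, gave 1650.5, 2087, 1587 and 1338 in the fasted livers and 1599, 1424, 1384 and 1244 in the refed livers. Fasted liver was the higher on 4 of 4 arrays, most on replicate 2, and the groups overlapped. The log2 ratios were 0.046, 0.55, 0.20 and 0.10, with a mean of 0.22 ± 0.23 (SD, n = 4, interval -0.022 to 0.47, adjusted p of 0.276 in limma). The other Slc1a2 probes were at 0.099 ± 0.30 and 0.080 ± 0.21. Glul, the glutamine synthetase of the same perivenous cells, was at -0.0036, and of 6 perivenous marker genes tested 0 were called, with 0 at an unadjusted p under 0.05 in limma.

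Slc43a1, a sodium-independent carrier of branched-chain and other large neutral amino acids, was at 288, 219, 185 and 143 in the fasted livers and at 193, 128, 241 and 212 in the refed livers. Fasted liver was higher on replicates 1 and 2 and lower on replicates 3 and 4. The log2 ratios were 0.58, 0.78, -0.38 and -0.56, with a mean of 0.10 ± 0.67 (SD, n = 4, interval -0.48 to 0.68, adjusted p of 0.870 in limma), so neither a 1.5-fold rise nor no change lies outside the interval.

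The split of Slc43a1 followed the dye of the fasted liver. With the fasted liver in Cy5 its mean log2 ratio was 0.68 and with the fasted liver in Cy3 it was -0.47, a dye effect of 0.57 (adjusted p of 0.0195 in limma). Slc3a2 had means of -0.60 and, next to 0, 3.23e-05 in the same order, a dye effect of -0.30 (adjusted p of 0.0482). A dye effect at an adjusted p under 0.10 was found for 14.8% of all probes tested, and for 2 of the 11 member probes. With a dye term in the model the adjusted p of Slc3a2 was 0.0205, with the same mean of -0.30, which falls short of 1.5-fold. That of Slc43a1 was 0.358.

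Among the called members, the rise of Slc38a4 was 1.43 with the fasted liver in Cy5 and 1.57 in Cy3. That of Slc38a2 was 0.77 and 1.07, and that of Slc7a2 was 1.27 and 0.50, with a dye effect of 0.38 on the last (adjusted p of 0.117 in limma). All 3 were higher in fasted liver in both orientations. With the dye term they were called at adjusted p values of 0.00179, 0.00662 and 0.00777.

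**Figure D3:**
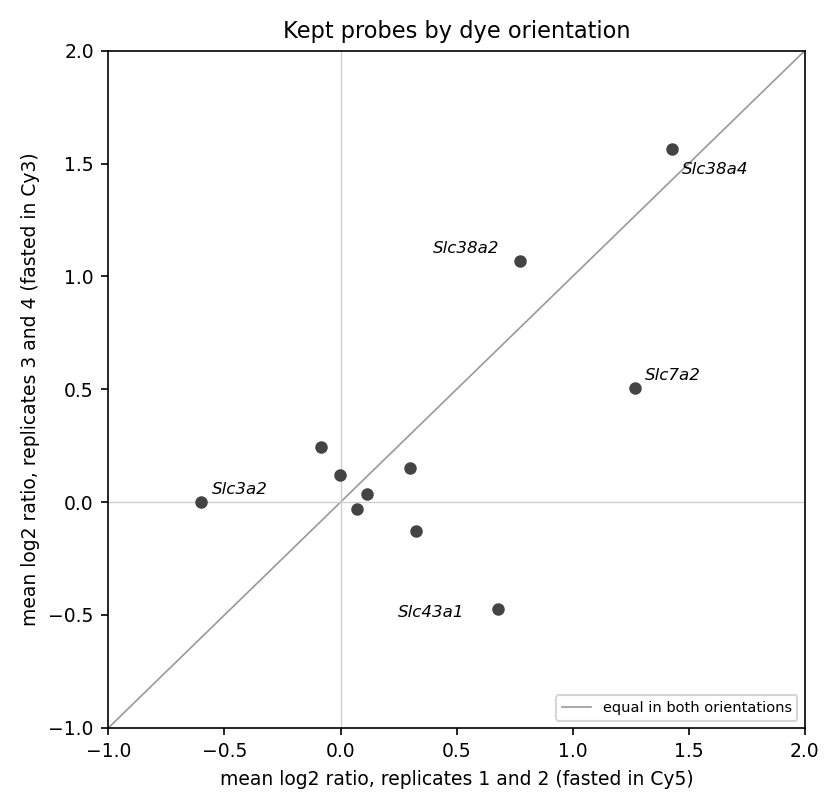
Mean log2 ratio of fasted over refed liver of each tested transporter probe on the 2 arrays with the fasted liver in Cy5 against the 2 arrays with it in Cy3. Slc38a4 (1.43 and 1.57) and Slc38a2 (0.77 and 1.07) lie in the upper right part, and Slc43a1 (0.68 and -0.47) lies on opposite sides of 0.

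A further 45 genes of amino acid carriers were examined for comparison, of which 44 were on the array and 19 were bright enough to be tested. In limma 0 of the 19 were called, with 1 lower and 2 higher at an unadjusted p under 0.05, and SAM, rebuilt at the same limits, also called 0. With 3.95% of all gene names called, a count of 0 among 19 is near the background share, and the difference from the members was not tested. Their median log2 ratio was 0.019, with a range of -0.56 to 0.36, and 10 were above 0 and 9 below. The gene closest to a call was Slc36a1, a proton-coupled carrier that exports amino acids from lysosomes, with ratios of -0.086, -0.57, -0.69 and -0.91 and a mean of -0.56 ± 0.35 (SD, n = 4, adjusted p of 0.0694 in limma). By this brighter of its 2 tested probes it was lower in fasted liver on 4 of 4 arrays and fell short of the 1.5-fold limit at 1.48-fold, while its other probe was at 0.020. The brighter probe passed both limits without replicate 1 (-0.72, adjusted p of 0.0280) and under 5 other ways of processing. The SLC38 paralogues Slc38a6, Slc38a7, Slc38a9 and Slc38a10 were at 0.038, -0.21, 0.25 and 0.019, and none passed.

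Slc38a2, Slc7a5, Slc7a11, Slc3a2 and many other transporter genes are textbook targets of ATF4, the factor that amino acid shortage induces, so a list of 23 genes of that response was examined. Of its 18 tested members 5 were called, in both directions (27.8%, against 3.95% of all gene names tested), and their median log2 ratio was 0.18. Fgf21, a fasting hormone of the liver, rose by 1.11 ± 0.69 (SD, n = 4, adjusted p of 0.0557 in limma). Trib3, a pseudokinase that inhibits Akt, rose by 0.75 ± 0.49 (adjusted p of 0.0689).

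Ddit3, the stress factor CHOP, changed by -1.81 ± 0.17 (SD, n = 4, adjusted p of 0.00169 in limma), lower in fasted liver on each array. Psph, the last enzyme of serine synthesis, was at -0.75 ± 0.35 by its brighter probe (adjusted p of 0.0349) and at -0.41, short of 1.5-fold, by its other probe. Nupr1, a small stress-induced nuclear protein, was at -0.997 ± 0.68 (adjusted p of 0.0689), with a ratio of -0.013 on replicate 1 and of -1.16 or lower on the other arrays. Ddit3 alone was called in every leave-one-out fit. Without replicate 2 or without replicate 3 it was the 1 gene of the list still called, and 4 were called without replicate 1 and 3 without replicate 4. Fgf21 lost its call without replicate 2 (1.08) or 3 (1.19), and Trib3 without replicate 1 (0.54), 2 (0.80) or 3 (0.73). Psph lost it without replicate 2 (-0.74), 3 (-0.68) or 4 (-0.66), as did Nupr1 (-0.91, -0.82 and -0.94). Atf4 itself was at -0.36 (adjusted p of 0.137) and Sesn2, a leucine sensor, at 0.45 (adjusted p of 0.0977, short of 1.5-fold).

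**Figure D4:**
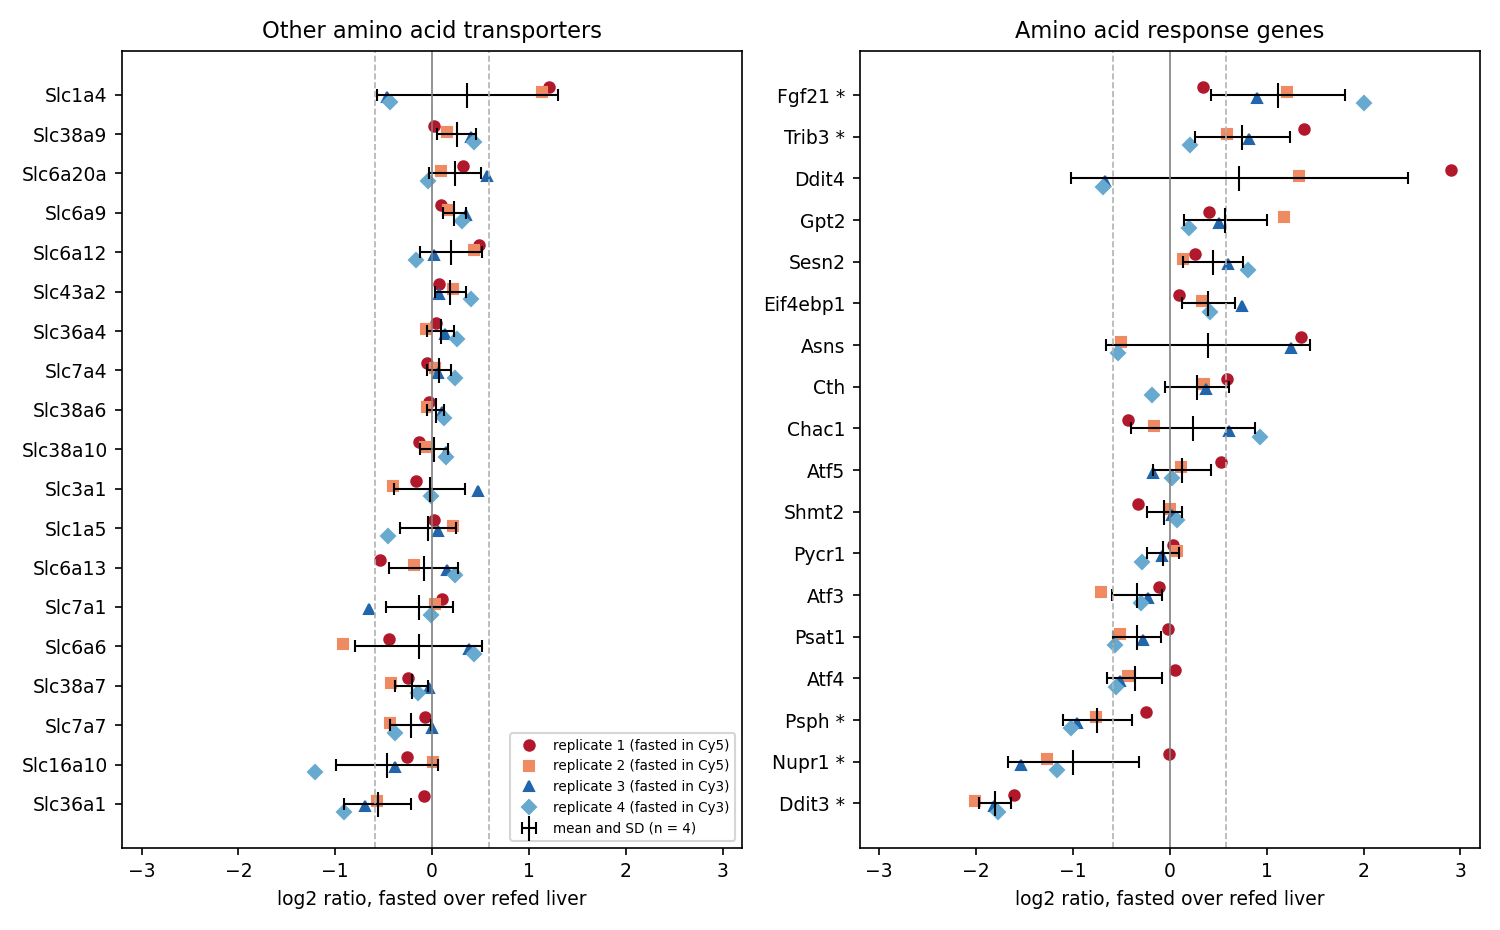
Log2 ratio of fasted over refed liver for the 19 tested genes of other amino acid carriers (left) and the 18 tested genes of the amino acid response (right), ordered by mean. Each symbol is 1 array, bars give mean and SD (n = 4), dashed lines mark 1.5-fold and an asterisk marks a called gene. The carrier means run from -0.56 to 0.36, and the response genes from -1.81 (Ddit3) to 1.11 (Fgf21).

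Enzymes that handle the carried amino acids formed a list of 15, of which 14 were tested and 2 were called, both higher (14.3%, against 1.82% of all gene names called higher). Got1, the cytosolic aspartate aminotransferase, had log2 ratios of 2.14, 2.25, 1.45 and 0.47, with a mean of 1.58 ± 0.82 (SD, n = 4, adjusted p of 0.0339 in limma). Tat, which starts the breakdown of tyrosine, had ratios of 1.19, 1.25, 0.61 and 0.30 and a mean of 0.84 ± 0.46 (adjusted p of 0.0450). Both were higher in fasted liver on every array. Got1 lost its call without replicate 2 (1.35) or 3 (1.62), and Tat without replicate 1 (0.72), 2 (0.70) or 3 (0.91).

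Of the 16077 gene names tested, the 3 whose ratios lay closest to those of Slc38a4 over the 4 arrays were Rab30, 1300015D01Rik and Cebpb. Rab30, a small GTPase of the Golgi, had ratios of 1.19, 1.73, 1.53 and 1.59, a root mean square distance of 0.069 from Slc38a4. The distance was 0.15 for 1300015D01Rik, whose mean was 1.41, and 0.17 for Cebpb, a transcription factor of the fasting response, whose mean was 1.396. Likeness over 4 arrays reflects the mean ratio above all.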

How the data were processed

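RNA of 4 fasted and 4 refed livers (200 ng each) was measured on 4 two-colour arrays of 1 slide in a dye swap. The deposited scanner files, written by Agilent Feature Extraction (10.10.1.1 per the file headers), hold raw spot and local background intensity, quality flags and mm9 probe positions. The authors also deposited log2 ratios normalized within arrays by loess in limma, with the background step not given in the sources used here; these served as an alternative and were matched by row number. Spot medians (44397 per array) were corrected by normexp (offset 50) in limma 3.58.1 under R 4.3.3, after 55 of 177588 spots with a local background above 3 times the array median were left out, and normalized by loess (span 0.3, 4 iterations). Flagged spots (197 to 322 per array) were left out, 0 were saturated, and spots of a probe were averaged. Probes well above background on all 4 arrays in at least 1 condition, with a value on every array, were kept (19707 of 39429). The median brightness of gene spots was 40 to 75 in Cy5 and 44 to 96 in Cy3, against local backgrounds of 25 to 35 and 20 to 33. Levels are intensities after loess and scaling of average brightness between arrays.

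The 4 log2 ratios of each probe were fitted with lmFit and eBayes, two-sided, and p-values were adjusted over every kept probe by Benjamini-Hochberg. A call needed an adjusted p under 0.10 and 1.5-fold, the limits the study used with SAM. Of all kept probes, 335 were called higher and 410 lower. A gene was counted by its brightest kept probe. Members, lists and settings were chosen with earlier results of these data known. Named are all members, called genes of the lists, genes past the adjusted p alone where counted, and the 3 genes nearest in ratio to the member with the smallest adjusted p; Atf4, Glul, the SLC38 paralogues and genes in the closing section were named after their values were seen. Alternatives covered background, signal source, normalization, flags, filters, the test and its limits, a dye term, separate channels and each replicate left out. The steps were tested on simulated data. The naming rule selects 1 further gene, which is not reported here.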

Additional observations from a re-analysis of the deposited data

Results flagged for a closer look

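Slc38a2 on replicate 1 lay apart from the other arrays. Its log2 ratio of fasted over refed liver was 0.41 there and 1.03 to 1.14 on replicates 2 to 4, and its distance from the next value made up 0.854 of the span of the 4 values. It was 1 of 18 sets of ratios examined in this way, and chance sets apart about 1 in 20. Without replicate 1 the mean was 1.09 (adjusted p of 0.00805 in limma), against 0.92 with it. Slc38a4 also had its lowest ratio on replicate 1, at 1.07. The 4 blood genes had a mean log2 ratio of 1.34 on that array and of 1.74 on replicate 3, where Slc38a2 was at 1.103. Their part in the value was not tested.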

How the results depend on the processing

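Slc38a4 lay between 1.34 and 1.64 over 19 alternatives and was called in 18, Slc38a2 lay between 0.61 and 1.09 and was called in 18, and Slc7a2 lay between 0.64 and 1.05 and was called in 15. With normexp fitted to all spots, high local backgrounds included, 0 members were called (Slc38a4 at 1.34 with an adjusted p of 0.133), 0 response genes and 20 probes in all. An adjusted p under 0.05 left 2 members, without Slc7a2, and 2 response genes. Leaving out 1 replicate gave 2 to 3 members, 0 to 1 other carriers, 1 to 4 response genes and 464 to 938 probes, with the lowest probe count without replicate 3. The whole count of 745 probes became 1263 under plain background subtraction, 1588 with Agilent's processed signals and 2145 with no fold limit. Slc36a1 raised the count of other carriers from 0 to 1 without background correction, under plain subtraction, with Agilent's signals, with the authors' ratios, under median centring and with no fold limit. Response genes were 8 with Agilent's signals, 6 with a dye term and 3 with no brightness filter. Median centring in place of loess gave 230 higher and 635 lower probes (335 and 410 under loess) and turned Slc38a3 to -0.093; normexp on all spots turned the dimmest Slc1a2 probe to -0.039. With a replicate left out, Slc7a5 ranged from -0.019 to 0.047, another Slc1a2 probe from -0.035 to 0.20 and Slc43a1 from -0.12 to 0.32, none of them called. Fitting separate channels with no replicate block kept 3 members and 5 response genes called. The cause of these shifts was not tested.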

Other observations

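Many tested genes of the lists had ratios on both sides of 0, and those given here are examples picked after their values were seen. Asns, which makes asparagine, had log2 ratios of 1.35, -0.50, 1.25 and -0.54 on replicates 1 to 4. Ddit4, an inhibitor of mTORC1, had 2.90, 1.33, -0.67 and -0.69, and the neutral amino acid carrier Slc1a4 had 1.21, 1.13, -0.46 and -0.43. Slc6a6, the taurine carrier, ran the other way, at -0.44, -0.92, 0.38 and 0.43. The last 3 split by the dye of the fasted liver. With a dye term in the model, Ddit4 was called higher in fasted liver (0.72, adjusted p of 0.0897 in limma). Asns was above 0 on replicates 1 and 3, the arrays on which the 4 blood genes had mean log2 ratios of 1.34 and 1.74, whose part in it was not tested. Sds, which turns serine into pyruvate, had no value on replicate 1, where its spot was left out by its quality flag, and had ratios of 2.18, 1.18 and 1.18 on the other arrays. The pancreatic acinar genes were at -0.0059 to 0.028 on average on replicates 1 and 4, at -0.12 on replicate 2 and at -3.91 on replicate 3. On that array the cationic amino acid carrier Slc7a1 was at -0.65.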
